A study of Mus musculus with 4 samples.

Results

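The matrix metalloproteases (MMPs), their tissue inhibitors (TIMPs), the ADAMTS and ADAMTS-like proteins and the cell-surface proteases Adam8, Adam10 and Adam17 were examined in mouse skin. Members were chosen by gene symbol from the array annotation, which gave 52 genes out of 19938 named genes: 22 MMPs, 4 TIMPs, 18 ADAMTS proteases, 5 ADAMTS-like genes and the 3 ADAMs. Mmp15 and Adamts2 were not analysed here. RNA from whole skin of C57BL/6 mice was hybridised to 4 Affymetrix mouse gene arrays. The series compared skin with and without Cre in a search for genes that could hold back differentiation and growth of keratinocytes. K5-Cre skin was 2 arrays (replicates 2 and 6) of the genotype CflarF/F;K5-Cre;Tnfrsf1a+/-, in which both alleles of Cflar are floxed and the keratin 5 promoter, active in basal keratinocytes, drives Cre. No K5-Cre skin was 2 control arrays: replicate 1 was CflarF/+;Tnfrsf1a+/- and replicate 3 was CflarF/F;Tnfrsf1a+/-. All 4 samples carried 1 disrupted allele of Tnfrsf1a, the gene of TNF receptor 1. The labels give no age, sex, body site or number of animals per array, and p-values therefore cover nothing beyond the spread among these 4 samples, part or all of which may be technical.

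MMPs are zinc-dependent proteases that are mostly secreted as inactive proenzymes. Between them they cut collagens, basement membrane and many signalling proteins, and TIMPs block them by binding the active site. ADAMTS proteases act on proteoglycans and procollagens, and ADAM proteases of the cell surface release growth factors and cytokine receptors. In wounded or inflamed skin, MMPs come from keratinocytes, fibroblasts, macrophages and neutrophils.

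Values are the deposited log2 signals, where a difference of 1 is a 2-fold difference in signal. Signals of different genes are not compared, since each has its own probes. A gene was tested with limma where its 4-array mean exceeded 7.61, the median level of all transcript clusters (probe sets along a gene). This left 11255 genes and 34 of the 52 members. Since that mean includes both groups, some members were tested only because one group lifted them. Errors are limma's moderated standard errors (SE; n = 2 arrays in each group), and a gene passed at a Benjamini-Hochberg adjusted p of 0.05 over all 11255 genes. The smallest two-sided p of an exact permutation test is 0.333 in this design, and the p-values given depend on the variance model of limma.

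The targeted gene was not lower. The Cflar cluster with the highest mean stood at 9.69 and 9.71 in K5-Cre skin and at 8.97 and 8.77 in no K5-Cre skin. All 3 Cflar clusters were higher in K5-Cre skin, by 0.46 to 0.83 (Tnfrsf1a by 1.17 ± 0.11). Which exon is floxed is not in the labels, and cells without Cre are part of whole skin, so these values do not check the labels, and every direction given here rests on them. In whole skin, fewer cells of a type and less RNA per cell cannot be told apart. Array medians ran from 7.53 to 7.61. Over the tested genes, differences had an SD of 0.36 between the K5-Cre arrays, 0.12 between the no K5-Cre arrays and 1.13 to 1.16 across groups.

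Mmp8, Mmp13, Mmp9, Adam8, Mmp12 and Mmp19 rose by 16.1-fold or more in K5-Cre skin, and Adamts12, Mmp2, Adamts9 and Timp3 fell by 4.04-fold or more. Of 34 tested members, 11 were higher, 16 were lower and 7 did not pass. The shares were 32.4% and 47.1%, beside 25.2% and 38.8% of all tested genes, and 79.4% of the members passed in either direction, beside 64.0%. Against a threshold of 1.5-fold, 8 members rose and 14 fell, beside 9.66% and 15.1% of all tested genes. Differences of at least 8-fold that passed were found for 6 members that were higher and 1 that was lower, where 1.5% and 1.32% of all tested genes were that far apart. The median difference over the tested members was −0.34, beside −0.14 over all tested genes, and the median size of the difference was 1.35, beside 0.53. Over all 52 members the median difference was −0.051, beside 0.114 over all named genes. By class, of 12 tested MMPs 6 rose and 3 fell, and of 13 tested ADAMTS proteases 0 rose and 11 fell. These class counts depend on the filter. Mmp8, Mmp13, Mmp12, Mmp9 and Mmp25 had no K5-Cre means under its level (5.655 to 6.987). Mmp16, Adamts12, Adamts15, Adamts18 and Adamts19 had K5-Cre means under it (6.943 to 7.105). Of all 22 MMPs, 14 were higher and 7 lower without overlap, and of all 18 ADAMTS proteases 1 and 14. That 1, Adamts13, passed as higher in the limma fit without a filter (adjusted p = 0.0081), as did 30.8% of all named genes. Of all 52 members, 45 had groups that did not overlap (20 higher and 25 lower), as did 84.6% of all named genes and 86.0% of the tested genes. Groups apart without overlap by at least 2-fold were found for 9 tested members that were higher and 14 that were lower, beside 10.7% and 15.0%. Fitted without a filter, 19 of the 52 members were higher and 22 lower, beside 30.8% and 27.9% of all named genes (58.7% in either direction).

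**Figure D1:**
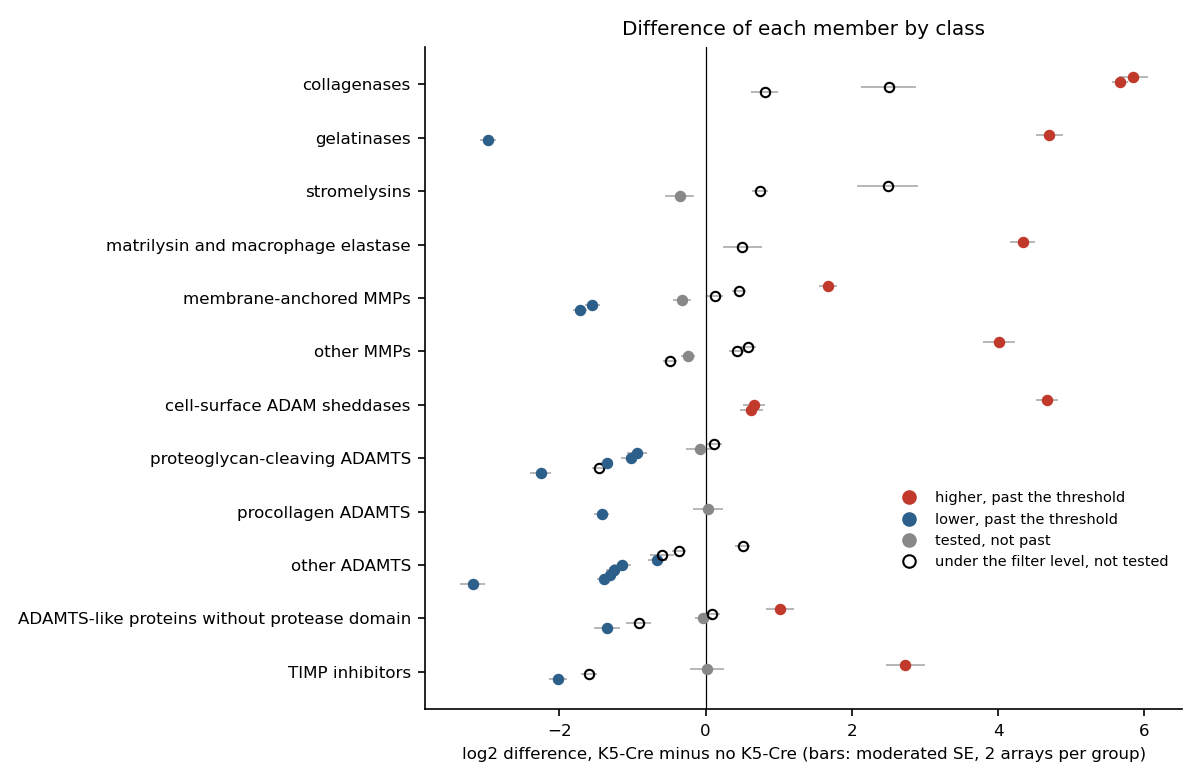
Difference in log2 signal (K5-Cre minus no K5-Cre, horizontal axis) of the 52 members by class. Bars are moderated SEs with 2 arrays per group, from the fit without a filter where a member was not tested. The collagenases Mmp8 and Mmp13 lie farthest to the right, at 5.85 and 5.67, and most ADAMTS proteases lie left of 0.

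Mmp8 and Mmp13, the members with the highest rises, lie in a run of MMP genes on chromosome 9. In the RefSeq gene table the 10 genes Mmp13, Mmp12, Mmp1b, Mmp3, Mmp1a, Mmp10, Mmp8, Mmp27, Mmp20 and Mmp7 follow one another with no other protein-coding gene between them. Mmp13, a collagenase of remodelling tissue, was at 11.73 and 11.87 in K5-Cre skin and at 6.16 and 6.10 in no K5-Cre skin, a rise of 5.67 ± 0.11 (adjusted p = 5.39e-05). Mmp8, the collagenase of neutrophil granules, was at 11.25 and 11.76 in K5-Cre skin and at 5.55 and 5.76 in no K5-Cre skin, a rise of 5.85 ± 0.20 (adjusted p = 7.26e-05). In both genes every K5-Cre array was over 5 log2 units above every no K5-Cre array. All 8 tested neutrophil markers rose on the same arrays, and their part in the rise of Mmp8 was not tested. Mmp12, the elastase of macrophages, was at 10.36 and 10.77 in K5-Cre skin and at 6.13 and 6.32 in no K5-Cre skin, a rise of 4.34 ± 0.17 (adjusted p = 9.42e-05).

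The other 7 genes of the run lay under the filter level and were not tested. Mmp3, stromelysin 1, which cuts matrix and activates other MMPs, was at 9.19 and 7.84 in K5-Cre skin and at 6.05 and 6.00 in no K5-Cre skin. Mmp1b, a relative of human interstitial collagenase, was at 7.33 and 6.14 in K5-Cre skin and at 4.09 and 4.37 in no K5-Cre skin. In both genes the groups did not overlap, and K5-Cre replicate 2 was over 1 log2 unit above replicate 6. Mmp1a, a close relative of Mmp1b whose signal may not be separate from it, was at 5.84 and 5.34 in K5-Cre skin and at 4.74 and 4.83 in no K5-Cre skin. Mmp10, stromelysin 2, was at 7.56 and 7.55 in K5-Cre skin and at 6.91 and 6.70 in no K5-Cre skin. The differences of Mmp1a and Mmp10, 0.81 and 0.75, stand beside a median of 0.27 and an SD of 0.645 over the 8683 genes under the filter level. In the limma fit without a filter these 4 genes passed, as did 58.7% of all named genes. The adjusted p values were 0.00464 for Mmp3, 0.00327 for Mmp1b, 0.0128 for Mmp1a and 0.00292 for Mmp10.

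The 3 genes at the far end of the run had the smallest differences. Mmp20, an enzyme of tooth enamel, was higher by 0.58 and Mmp7, the matrilysin of glandular epithelia, by 0.50. The median over the genes under the filter level was 0.27, with an SD of 0.645. The Mmp7 value rested on K5-Cre replicate 2 at 7.53, with replicate 6 at 6.68, beside 6.58 and 6.62 in no K5-Cre skin. Mmp27 was the one gene of the run that was lower, at 6.37 and 6.41 in K5-Cre skin and at 6.94 and 6.81 in no K5-Cre skin. In the limma fit without a filter, Mmp20 (adjusted p = 0.00628) and Mmp27 (adjusted p = 0.00892) passed and Mmp7 did not (adjusted p = 0.153). The nearest coding genes on either side, chosen after their values were seen, were Dcun1d5 and Tmem123. Dcun1d5 was lower by 1.54 ± 0.12 (adjusted p = 0.000527), and Tmem123 differed by 0.13 ± 0.11 and did not pass (adjusted p = 0.325).

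**Figure D2:**
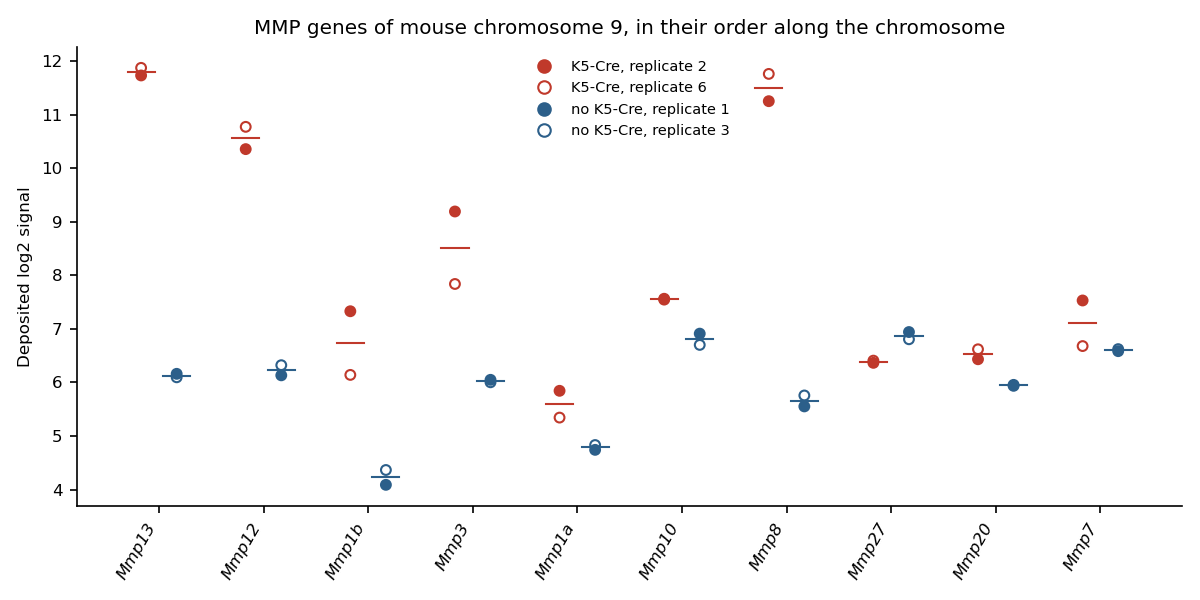
Deposited log2 signal (vertical axis) of the 10 MMP genes of chromosome 9 in their order along the chromosome, with K5-Cre arrays on the left and no K5-Cre arrays on the right of each gene. Points are single arrays and lines are group means. Mmp13, Mmp12 and Mmp8 reach values above 10 in K5-Cre skin, and Mmp27 is the one gene whose K5-Cre values are below the others.

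Several MMP promoters are known to carry an AP-1 element, the site bound by Fos and Jun proteins, a short distance before a TATA box. Promoter windows from RefSeq (build GRCm38.p6, 250 bases before to 50 after a gene's start) were found for 37 members. The other 15, among them Mmp9, Mmp19, Mmp2 and Mmp16, could not be searched. In the windows found, the letters TGANTCA were searched on both strands. They occurred in 8 of the 10 genes of the run and in 0 of the 27 other members with a window, against 8.97% of all 27025 genes with a window. The 8 windows with these letters also held TATAAA on either strand, a pair found in 1.54% of all 32851 windows. The first letter of TATAAA stood 19 to 48 bases after that of the next AP-1 match upstream, and in Mmp12 it lay after the start. The 120 bases before the start are shown for the 7 genes of the run with the largest differences, 5′ to 3′ on the gene's strand, with matches to TGANTCA and TATAAA in capitals.
Mmp13 chr9:7272394-7272513 (+ strand): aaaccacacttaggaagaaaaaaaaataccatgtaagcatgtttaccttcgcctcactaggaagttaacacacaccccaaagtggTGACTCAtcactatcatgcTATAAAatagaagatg
Mmp12 chr9:7347254-7347373 (+ strand): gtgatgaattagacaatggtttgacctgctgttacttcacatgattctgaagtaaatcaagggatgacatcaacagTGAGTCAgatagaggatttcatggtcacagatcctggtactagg
Mmp1b chr9:7388027-7388146 (- strand): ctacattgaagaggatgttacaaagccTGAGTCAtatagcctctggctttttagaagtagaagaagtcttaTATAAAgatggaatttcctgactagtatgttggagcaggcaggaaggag
Mmp3 chr9:7445702-7445821 (+ strand): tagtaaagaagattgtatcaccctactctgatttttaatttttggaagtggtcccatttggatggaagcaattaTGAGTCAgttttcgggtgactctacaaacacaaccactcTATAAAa
Mmp1a chr9:7464021-7464140 (+ strand): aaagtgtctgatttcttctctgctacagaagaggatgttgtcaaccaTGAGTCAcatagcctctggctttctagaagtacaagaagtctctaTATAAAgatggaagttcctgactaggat
Mmp10 chr9:7502222-7502341 (+ strand): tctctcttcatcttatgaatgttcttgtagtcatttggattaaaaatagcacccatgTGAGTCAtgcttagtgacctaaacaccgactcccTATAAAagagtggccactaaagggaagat
Mmp8 chr9:7558309-7558428 (+ strand): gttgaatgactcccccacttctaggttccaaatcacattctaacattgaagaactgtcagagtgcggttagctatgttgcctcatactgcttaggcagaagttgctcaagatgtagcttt
The AP-1 letters began at position −35 from the start in Mmp13, −44 in Mmp12 (in 1 of its windows), −93 in Mmp1b, −46 in Mmp3, −73 in Mmp1a and −63 in Mmp10. They also began at −95 in Mmp20 and at −63 in Mmp7 (in 1 of its windows), which were higher by only 0.58 and 0.50. Mmp7 did not pass even in the fit without a filter. Mmp8, which rose by 5.85, had no AP-1 match in its window, nor had Mmp27, the gene that was lower. Over all tested genes with a window, 36.9% of the 597 with AP-1 letters rose, beside 24.6% of all 8955. The genes of the run are neighbours of the same family, and the sequences of Mmp1a and Mmp1b shown here are much alike. Matches in the run may therefore not be independent, and the share over all genes with a window is no test of their number. Whether these letters have a part in the rises was not tested. A match is a run of letters and does not show binding.

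Outside the run, 3 further MMPs rose. Mmp9, gelatinase B, a product of neutrophils, macrophages and wound-edge keratinocytes, was at 11.56 and 11.81 in K5-Cre skin and at 7.21 and 6.77 in no K5-Cre skin. Its rise was 4.70 ± 0.19 (adjusted p = 9.42e-05). Mmp19, an MMP of epidermis, vessels and myeloid cells, was at 12.14 and 12.77 in K5-Cre skin and at 8.48 and 8.40 in no K5-Cre skin, a rise of 4.01 ± 0.22 (adjusted p = 0.000197). Both were far outside the spread within each group. Mmp25, the membrane-anchored MMP of neutrophils, was at 8.63 and 8.32 in K5-Cre skin and at 6.80 on both no K5-Cre arrays, a rise of 1.68 ± 0.13 (adjusted p = 0.000461).

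The other gelatinase moved the opposite way. Mmp2, gelatinase A, made mainly by fibroblasts, was at 9.09 and 8.95 in K5-Cre skin and at 11.94 and 12.06 in no K5-Cre skin. It fell by 2.98 ± 0.11 (adjusted p = 8.23e-05), or 7.89-fold. All 11 fibroblast markers fell on the same arrays, and their part in the fall of Mmp2 was not tested. Mmp16, a membrane-anchored MMP, fell by 1.71 ± 0.10 (adjusted p = 0.000215) and Mmp23 by 1.55 ± 0.10 (adjusted p = 0.000319). Mmp14, the membrane-anchored protease that activates the Mmp2 proenzyme, was at 10.67 and 10.91 in K5-Cre skin and at 11.14 and 11.09 in no K5-Cre skin. Its difference of −0.32 ± 0.12 did not pass (adjusted p = 0.064), although the groups did not overlap. Mmp11 (−0.36 ± 0.20) and Mmp28, an MMP of keratinocytes (−0.24 ± 0.10), did not pass either (adjusted p = 0.177 and 0.0785). For Mmp11 the K5-Cre arrays were 0.57 apart, at 8.02 and 8.59. The remaining MMPs, Mmp17, Mmp21 and Mmp24, were under the filter level and differed by 0.13 to 0.46, beside a median of 0.27 over the genes under that level.

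All 3 ADAM proteases were higher in K5-Cre skin. Adam8, a sheddase of myeloid cells, was at 12.26 and 12.55 in K5-Cre skin and at 7.84 and 7.63 in no K5-Cre skin, a rise of 4.67 ± 0.15 (adjusted p = 7e-05). Adam10, the main sheddase of Notch and E-cadherin, was at 10.48 and 10.86 in K5-Cre skin and at 10.04 on both no K5-Cre arrays. Its rise was 0.63 ± 0.15 (adjusted p = 0.0176). Adam17, which sheds TNF, its receptors and EGF receptor ligands, was at 10.05 and 10.40 in K5-Cre skin and at 9.61 and 9.52 in no K5-Cre skin, a rise of 0.66 ± 0.15 (adjusted p = 0.0147). The groups of both did not overlap, but the sizes of the differences depended on the K5-Cre array. Without K5-Cre replicate 2 the differences were 0.816 for Adam10 and 0.839 for Adam17, and without replicate 6 they were 0.441 and 0.483. The differences hardly moved when either no K5-Cre array was left out. They were then 0.627 and 0.629 for Adam10 and 0.703 and 0.618 for Adam17, without replicate 1 and without replicate 3. Neither gene passed in those fits (adjusted p from 0.0956 to 0.126), in which 1 control array is left and is assumed to vary like the K5-Cre pair.

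Partners and cargo of Adam10 and Adam17 were counted from lists. Of 6 tested partners 3 rose and 2 fell, with a median of 0.45. The risers were Rhbdf2 (1.47 ± 0.13), which encodes an iRhom that carries Adam17 to the cell surface, Frmd8 (1.26 ± 0.10), which stabilises the iRhoms, and Tspan14 (1.01 ± 0.15), a tetraspanin partner of Adam10. Of 17 tested genes whose products Adam10 or Adam17 shed, 13 rose, 1 fell and 3 did not pass (median 1.69). The EGF receptor ligand Epgn rose by 5.49 ± 0.18, the decoy receptor Il1r2 by 4.72 ± 0.15 and the ligand Hbegf by 3.76 ± 0.18. These counts stand beside 25.2% of all tested genes that rose.

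The ADAMTS proteases were mostly lower. Of the proteoglycan-cleaving group, 4 of 5 tested members fell and 0 rose, beside 38.8% and 25.2% of all tested genes. Adamts9, a protease of versican, was at 8.82 and 8.50 in K5-Cre skin and at 10.88 and 10.95 in no K5-Cre skin, and fell by 2.25 ± 0.14 (adjusted p = 0.000282). Of the aggrecanases, Adamts5 fell by 1.03 ± 0.13 (adjusted p = 0.00198) and Adamts4 fell by 0.94 ± 0.13 (adjusted p = 0.00296). Adamts15 was at 6.94 on both K5-Cre arrays and at 8.27 and 8.32 in no K5-Cre skin (−1.35 ± 0.08, adjusted p = 0.000247). Adamts15 had the lowest mean among the tested members. Adamts20, just under the filter level and so not tested, was at 6.78 and 6.90 in K5-Cre skin and at 8.33 and 8.27 in no K5-Cre skin (−1.46). Adamts1 did not pass: it was at 10.26 and 9.73 in K5-Cre skin and at 10.04 and 10.08 in no K5-Cre skin, where the groups overlapped (−0.07 ± 0.19, adjusted p = 0.768). Its direction depends on the array: it was −0.33 without K5-Cre replicate 2 and 0.19 without replicate 6.

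All 6 tested members of the remaining ADAMTS group fell, beside 38.8% of all tested genes. Adamts12 encodes a protease of cartilage oligomeric matrix protein. By the highest-mean cluster of each member, it had the largest fall, close to that of Mmp2. Another cluster of Adamts9 differed by more, −3.31. Adamts12 was at 7.20 and 6.74 in K5-Cre skin and at 10.20 and 10.13 in no K5-Cre skin (−3.19 ± 0.17, adjusted p = 0.000194). Adamts19 was at 7.18 and 7.03 in K5-Cre skin and at 8.49 and 8.50 in no K5-Cre skin (−1.39 ± 0.10, adjusted p = 0.000349). Adamts17 was at 9.23 and 9.36 in K5-Cre skin and at 10.67 and 10.53 in no K5-Cre skin (−1.30 ± 0.11, adjusted p = 0.000679). In both, the arrays of a group lay far closer to each other than to the other group. Adamts18 fell by 1.25 ± 0.11 (adjusted p = 0.000684) and Adamts10, which acts on fibrillin microfibrils, fell by 1.15 ± 0.12 (adjusted p = 0.00118). Adamts7 differed by −0.66 ± 0.13 (adjusted p = 0.00855). With 1 control array left the difference was about as large, −0.62 without replicate 1 and −0.70 without replicate 3, but did not pass (adjusted p = 0.0734 and 0.0539). Of the untested members, Adamts6 and Adamts16 were lower by 0.60 and 0.36 without overlap. Adamts13, the protease of von Willebrand factor, was at 7.28 and 7.33 in K5-Cre skin and at 6.87 and 6.73 in no K5-Cre skin. No other ADAMTS protease had both K5-Cre arrays above both no K5-Cre arrays. The Adamts13 difference of 0.51 stands beside a median of 0.27 and an SD of 0.645 over the 8683 genes under the filter level. Adamts8 was not tested, and its groups overlapped.

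Of the enzymes that remove the N-propeptide of procollagens, Adamts14 was at 7.54 and 7.69 in K5-Cre skin and at 9.05 and 9.02 in no K5-Cre skin, and fell by 1.42 ± 0.10 (adjusted p = 0.000409). Adamts3 was at 8.25 and 7.66 in K5-Cre skin and at 7.88 and 7.95 in no K5-Cre skin, so its groups overlapped (0.04 ± 0.21, adjusted p = 0.879). Pcolce, which enhances removal of the other propeptide and is no member, fell by 3.43 ± 0.11 (adjusted p = 7.03e-05). Among the ADAMTS-like genes, whose products lack a protease domain, Adamtsl1 fell by 1.35 ± 0.17 (adjusted p = 0.00232). Adamtsl4, a protein of fibrillin fibres, was at 9.49 and 10.02 in K5-Cre skin and at 8.76 and 8.72 in no K5-Cre skin, and rose by 1.01 ± 0.19 (adjusted p = 0.00814). With no K5-Cre replicate 3 left out and 1 control array remaining, the Adamtsl4 difference was about the same, 0.998, and did not pass (adjusted p = 0.0507). Adamtsl5 did not pass (−0.03 ± 0.11, adjusted p = 0.819). Of the untested pair, Adamtsl3 was lower by 0.91 without overlap, and the groups of Adamtsl2 overlapped.

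**Figure D3:**
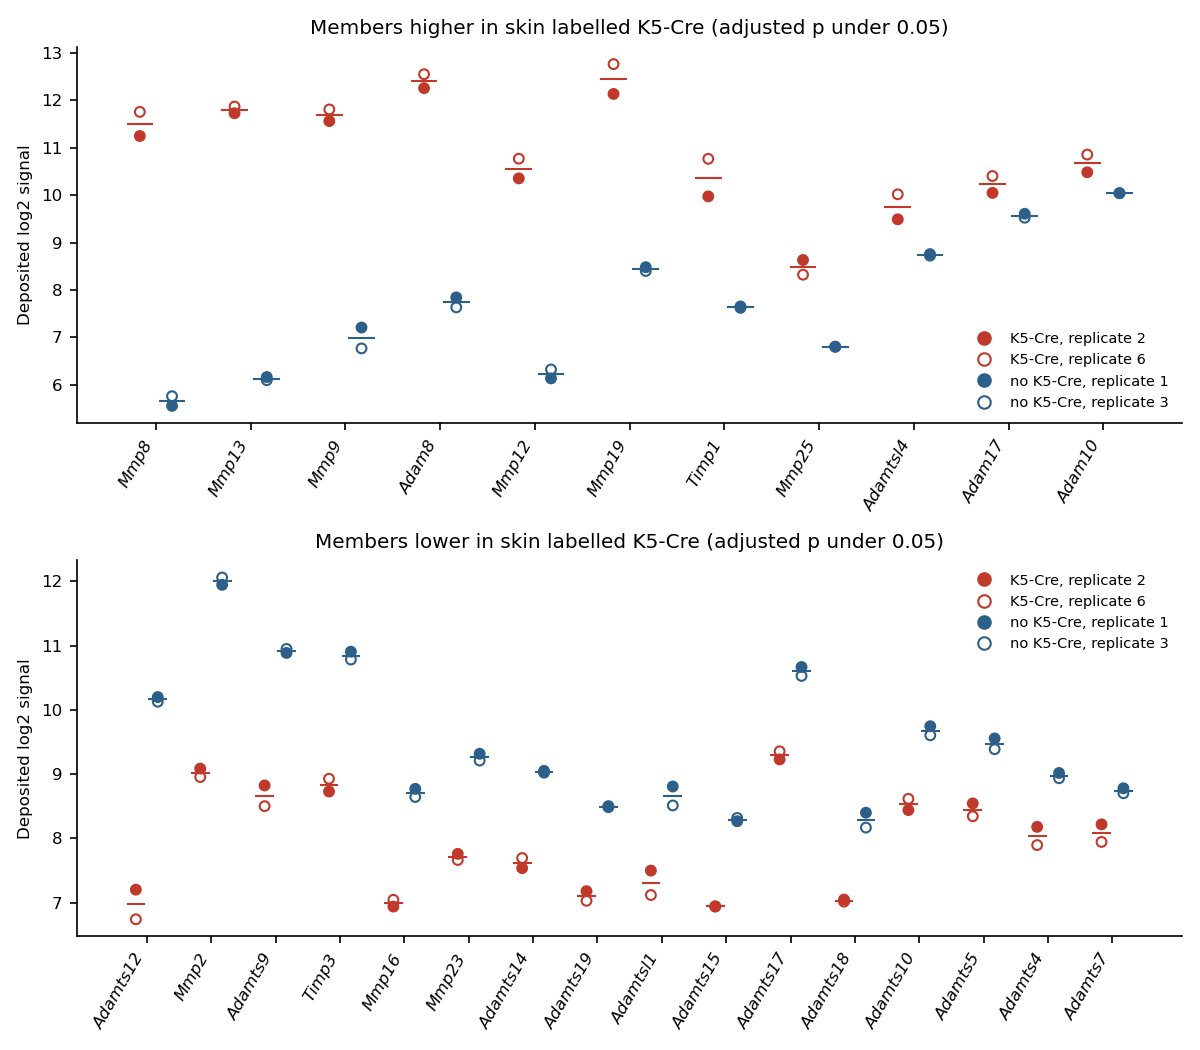
Deposited log2 signal (vertical axis) of the 11 members that rose (top) and the 16 that fell (bottom), ordered by the size of the difference. K5-Cre arrays stand left and no K5-Cre arrays right of each gene name, points are single arrays and lines are group means. No group overlaps another in these 27 members.

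Genes with several transcript clusters show how far the value depends on the cluster. All 6 clusters of Adamts9 were lower in K5-Cre skin, with differences from −3.31 to −1.52, and all 5 of Adamts17, from −2.60 to −0.29. In both genes the cluster that stood for the gene, chosen for its mean, gave a smaller fall than the median of its clusters (−2.68 for Adamts9 and −1.65 for Adamts17). The 2 clusters of Adamtsl1 differed by −1.35 and −1.23. Of 16 clusters of Adamts3, 10 were lower and 6 higher, from −0.92 to 0.34, and 2 lay above the filter level. No single direction can be given for Adamts3.

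**Figure D4:**
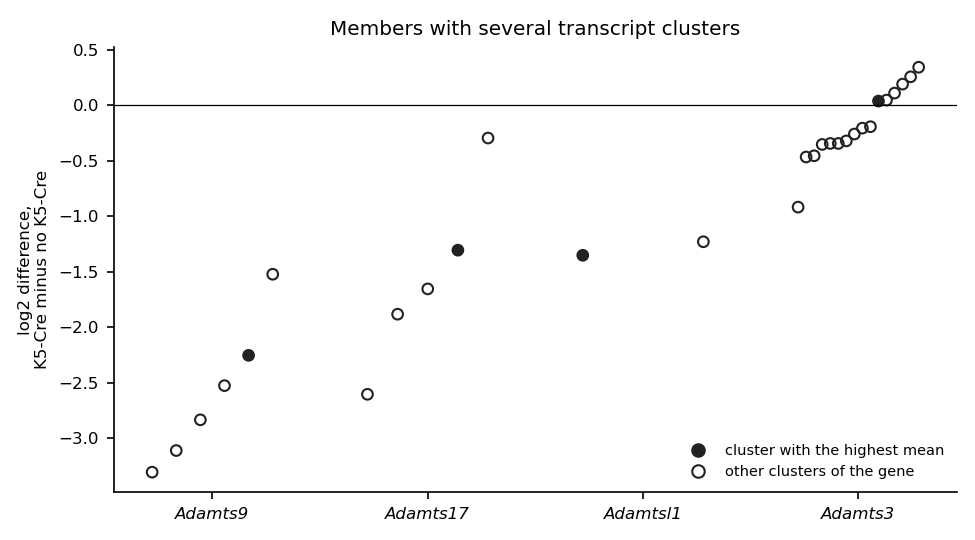
Difference in log2 signal (K5-Cre minus no K5-Cre, vertical axis) of each transcript cluster of the 4 members that have several. Filled points are the clusters with the highest mean. All clusters of Adamts9, Adamts17 and Adamtsl1 lie below 0, and those of Adamts3 lie on both sides.

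The TIMPs split. Timp1, an inhibitor that many inflamed tissues induce, was at 9.97 and 10.77 in K5-Cre skin and at 7.65 and 7.62 in no K5-Cre skin, a rise of 2.73 ± 0.27 (adjusted p = 0.000978). Timp3, the inhibitor that binds matrix and blocks Adam17 and aggrecanases besides MMPs, was at 8.73 and 8.93 in K5-Cre skin and at 10.90 and 10.78 in no K5-Cre skin. It fell by 2.01 ± 0.12 (adjusted p = 0.000253). Timp2, which helps Mmp14 to activate the Mmp2 proenzyme, was at 10.41 and 11.06 in K5-Cre skin and at 10.78 and 10.65 in no K5-Cre skin, so the no K5-Cre values lay between the K5-Cre values (0.02 ± 0.23, adjusted p = 0.955). Its difference was 0.34 without K5-Cre replicate 2 and −0.31 without replicate 6. Timp4 was not tested and was lower without overlap, at 6.40 and 6.62 in K5-Cre skin and at 8.16 and 8.05 in no K5-Cre skin. Of the K5-Cre arrays, replicate 6 had the higher value for all 4 TIMPs.

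Of 6 tested genes in the list of other inhibitors, propeptide enhancers and clearance receptors, 4 fell and 2 rose (median −0.69), beside 38.8% of all tested genes that fell and 25.2% that rose. Those that fell included Pcolce, which is no inhibitor. Reck, a membrane-anchored inhibitor of MMPs, fell by 3.42 ± 0.19 (adjusted p = 0.000216), and Tfpi2, a secreted protease inhibitor, by 0.88 ± 0.12 (adjusted p = 0.00271). Plasmin activates MMP proenzymes, and of 5 tested genes of the plasminogen system 3 rose and 1 fell. Serpinb2, an inhibitor of plasminogen activators, rose by 3.66 ± 0.15, the urokinase receptor Plaur by 3.11 ± 0.11 and urokinase itself, Plau, by 1.33 ± 0.10. Of the 5 convertases that remove propeptides, 2 rose, 2 fell and 1 did not pass. Furin rose by 1.72 ± 0.16, Mbtps1 fell by 1.23 ± 0.15 and Pcsk5 fell by 1.07 ± 0.11. Both lists hold only 5 tested genes, too few to read their shares against the 25.2% of all tested genes that rose and the 38.8% that fell.

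Inducers and partners of MMPs were mostly higher. Of 14 tested genes in that list, 12 rose, 0 fell and 2 did not pass (median 2.49). Ptgs2, encoding cyclooxygenase-2, rose by 5.25 ± 0.15, Lcn2, whose product binds Mmp9, by 5.22 ± 0.16, and the AP-1 gene Fosl1 by 3.31 ± 0.18. The matrix that these enzymes cut showed lower signals in most genes. Of 18 tested collagens and other MMP substrates, 11 fell, 4 rose and 3 did not pass (median −1.46), led by the fibrillin gene Fbn2 (−3.17 ± 0.29), Col1a2 (−3.14 ± 0.10) and the basement membrane gene Nid1 (−3.04 ± 0.15). All 6 tested proteoglycan genes fell (median −2.07), among them Lum by 3.83 ± 0.12, Dcn by 2.34 ± 0.10 and Vcan, encoding versican, by 2.21 ± 0.16. The list of metalloproteases outside the family also includes Papln, which encodes no protease. Of the 10 tested genes in that list, 3 rose, 5 fell and 2, Papln among them, did not pass (median −0.79), led by Mme at −2.66 ± 0.10. These counts stand beside 38.8% of all tested genes that fell and 25.2% that rose.

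Cell type markers differed between the groups on the same arrays. All 8 tested neutrophil markers were higher in K5-Cre skin, and the mean over the 12 measured was 10.25 and 10.26 in K5-Cre skin and 6.59 and 6.46 in no K5-Cre skin. The 4 neutrophil markers under the filter level were Ly6g, Camp, Mpo and Elane, higher without overlap by 1.75, 0.51, 0.60 and 0.31. Over the 8683 genes under that level, the median difference was 0.27 with an SD of 0.645. Groups did not overlap in 84.6% of all named genes. All 8 tested macrophage markers were higher, with a mean over 9 genes of 10.66 and 11.38 in K5-Cre skin and 8.18 and 8.35 in no K5-Cre skin. All 11 fibroblast markers were lower, with means of 9.37 and 9.31 in K5-Cre skin and 11.95 and 11.92 in no K5-Cre skin. Of 10 keratinocyte markers 7 rose and 0 fell, with means of 12.79 and 12.53 in K5-Cre skin and 11.69 and 11.64 in no K5-Cre skin. Of 9 endothelial markers 7 fell and 2 did not pass, and all tested markers of skeletal muscle (10), fat (6) and mast cells (6) fell. Over all tested genes, 25.2% rose and 38.8% fell. The part of these markers in the members' differences was not tested.

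The K5-Cre arrays also differed from each other in markers and members. Between the K5-Cre arrays, replicate 2 had the higher value for all 10 keratinocyte markers and for 1 of 9 macrophage markers. Of the members, 26 of 52 were higher in replicate 2. Mmp3, Mmp1b and Mmp7 stood out on that side, by 1.35, 1.19 and 0.85. Timp1, Timp2 and Mmp19 stood out on the other, by 0.79, 0.65 and 0.63 in replicate 6. In the no K5-Cre pair, which differs in a Cflar allele, the SD of the difference over the tested members was 0.13, beside 0.36 in the K5-Cre pair.

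**Figure D5:**
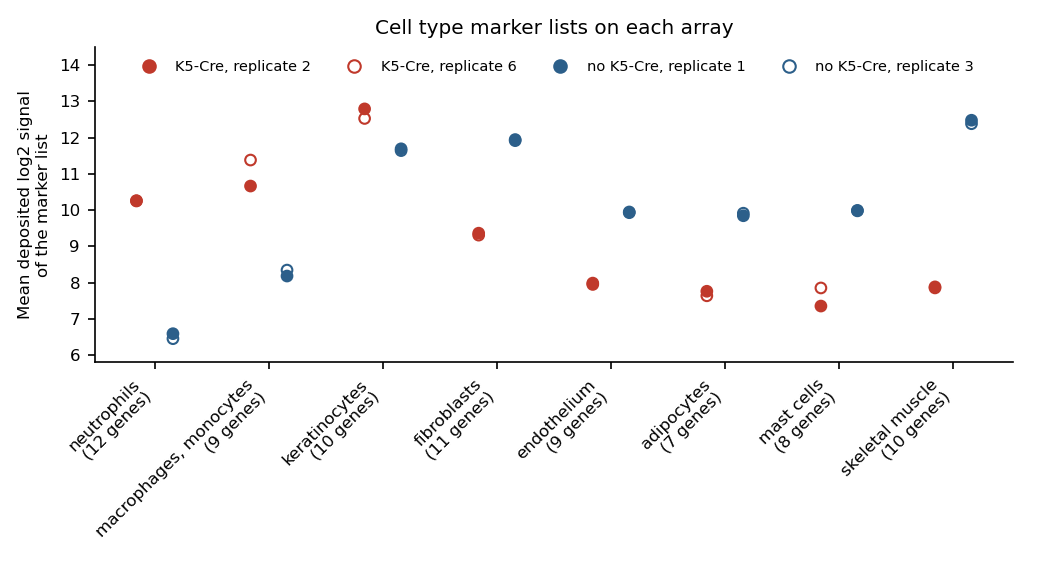
Mean deposited log2 signal of the measured genes of each cell type marker list (vertical axis) on each array, with K5-Cre arrays left and no K5-Cre arrays right of each name. Neutrophil, macrophage and keratinocyte lists are higher in K5-Cre skin and the other 5 lists lower.

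The authors' deposited table of selected clusters required a 4-fold difference relative to no K5-Cre replicate 1 on 1 array or more. In the authors' deposited table Mmp1b stood at 2.82-fold and Mmp3 at 3.20-fold on K5-Cre replicate 6, with Timp3 3.56-fold lower there, and each of the 3 passed 4-fold on replicate 2. Of the members, 14 genes with 18 clusters appear in the authors' deposited table, 9 genes higher and 5 lower. Mmp13 (chromosome 9, 7272514 to 7283333, mm9) is listed there at 40.7-fold and 45.1-fold for K5-Cre replicates 2 and 6. Mmp8 (chromosome 9, 7558448 to 7568486) is listed in the authors' deposited table at 42.4-fold and 60.8-fold, and Mmp2 (chromosome 8, 95351227 to 95377319) at 6.79-fold and 6.97-fold lower. Those figures show the same directions as the series table. All 18 member clusters had a smaller difference in the authors' deposited table than in the series table, by 0.03 to 0.56 on the log2 scale. The clusters of Mmp12 (7347374 to 7369499) and Mmp1b (7367670 to 7388026) share 1830 bases on opposite strands in the authors' deposited table. Whether their signals are fully separate was not tested.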

How the data were processed

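The skin RNA of 4 mouse samples was measured on Affymetrix MoGene-1_0-st-v1 arrays, per the file headers. The authors' deposited series table gives log2 signals for 35557 transcript clusters, used as deposited, with probe summarisation and normalization not given in the sources used here. Per the file headers, the second table was kept by the authors at the 20th percentile of signal and a 4-fold ratio against no K5-Cre replicate 1, on build mm9. It holds 1396 clusters with a linear intensity called raw, a log2 value relative to the no K5-Cre mean, an absolute fold and a signed fold score, all as deposited by the authors.

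Clusters with 1 platform gene symbol (21789) were named, and 21698 were matched to RefSeq by Entrez identifier. Left out were 1621 clusters with several symbols and 12147 with none. The highest-mean cluster stood for a gene. The K5-Cre arrays were set against the no K5-Cre arrays in limma 3.58.1 under R 4.3.3, by lmFit and eBayes with trend (5.01 degrees of freedom). The number of arrays limits the precision. The fit was tested on simulated data in which 200 of 11255 genes were changed, far fewer than the 7200 that passed here. It recovered 52% of the changes of 1 log2 unit and 85% of those of 2, with 0 of wrong sign and 5 false calls. Both groups were simulated with the same spread for a gene. In the data, differences had an SD of 0.36 between the K5-Cre arrays and 0.12 between the no K5-Cre arrays. The simulated rates may therefore not hold for these data. Motif searches used RefSeq promoter windows (GRCm38.p6). Members, lists and the rule for named genes were chosen with earlier results of these data known, so no list was tested. The rule named every member, with array values for the 10 largest rises and falls, the TIMPs and a few fixed members, and up to 3 genes per other list. Array values of other members were added after they were seen. Protein motifs were not searched. Alternatives covered the filter, scaling, variance model, cluster choice, a 1.5-fold threshold and each array left out. Unused per-sample columns numbered 0.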

Additional observations from a re-analysis of the deposited data

How the results depend on the processing

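Without a filter, 19 members were higher and 22 lower of 52, the median over the members was −0.051, and 6145 of all named genes were higher. Against a 1.5-fold threshold, 1087 genes were higher and 1698 lower, and 5 member calls were lost (Adam10, Adam17, Adamts4, Adamts7 and Adamtsl4). With each array left out in turn, which leaves 1 array in a group, assumed to vary like the other pair, 8 to 13 members were higher and 15 to 20 lower, 1463 to 3716 of all genes were higher and 2368 to 5454 lower, and the members' median ran from −0.48 to −0.31. Without no K5-Cre replicate 1, which leaves the comparison the series text states, 1463 genes were higher and 2368 lower, with 9 and 15 members. Without no K5-Cre replicate 3 these were 1479, 2467, 8 and 15. Without K5-Cre replicate 6, Adamts1 was at 0.194, Adamts3 at 0.334 and Timp2 at −0.311. Without K5-Cre replicate 2 they were at −0.333, −0.257 and 0.344, so each changed sign with the array left out, and the cause was not tested. Adamtsl5 had no single direction either: it was at −0.11 without K5-Cre replicate 2, 0.046 without replicate 6 and 0.107 under quantile normalization. Quantile normalization moved the median over all tested genes to −0.04, and shifting arrays to the same median moved it to −0.07. Under both, 11 members were higher and 16 lower, as they were without the variance trend and with clusters averaged per gene. In the authors' second table, an alternative chosen after seeing the data, Adam8 was at 4.38, Mmp12 at 3.98, Mmp13 at 5.50 and Mmp2 at −2.83, and the other 9 members compared moved by less than 1 SD. No paired analysis was possible because the groups share no replicate number. Signal over background was not assessed, so differences of members low in one group depend on the array's floor.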
